A study of Mus musculus with 11 samples.

Results

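The genes described here are the solute carrier that brings glucose into the cell and the enzymes that break it down to lactate: Slc2a1, Hk1, Hk2, Pfkp, Aldoa, Gapdh, Pgk1, Eno1, Pkm and Ldha. The list was chosen by symbol, and Hk2 was selected on its measured level in the injured hepatic stellate cell (HSC) clusters of these data, so the droplet (10x) values of the HSCs are a description and carry no test. These are 10 of the 27998 gene rows in the 10x tables, and each symbol had 1 row there. All 10 also had a row in the Smart-seq2 (SS2) plate table.

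The study sorted mesenchymal cells (GFP+ CD45- CD102-) from livers of Pdgfrb-BAC-eGFP reporter mice, adult males on a C57BL/6 background aged 10 to 16 weeks. The reporter, driven by Pdgfrb sequences, marks all mesenchymal cells and was carried by control and injured mice alike. There were 5 10x libraries, each 1 pool of 3 mice. With digestion protocol 2 (labelled HSC) the libraries came from uninjured mice, from mice 72 h after a single injection of carbon tetrachloride (CCl4) in olive oil, and from mice given CCl4 for 6 weeks. With digestion protocol 1 (labelled PF) they came from uninjured mice and from mice given CCl4 for 6 weeks. The mice of the 72 h group had been fasted overnight before the injection, and mice of the 6 week groups received repeated injections. The plates held uninjured wells beside wells from mice 14 days after bile duct ligation (BDL) or after 6 weeks of CCl4, and the layout gave each well's condition and mouse label. CCl4 injures hepatocytes around the central vein, whereas ligation of the bile duct injures the portal tract.

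Glycolysis turns glucose into pyruvate in the cytosol and yields a little ATP without oxygen. Glucose enters through facilitative transporters such as GLUT1 (Slc2a1), hexokinases trap it as glucose 6-phosphate, and phosphofructokinase commits it to the pathway. Lactate dehydrogenase then reduces pyruvate to lactate, which regenerates the NAD+ that the Gapdh step consumes. HSCs, the vitamin A storing pericytes of the liver sinusoid, are known to raise glycolysis when they activate into collagen-producing cells, and several of these genes are textbook targets of the hypoxia-inducible factors, which bind RCGTG motifs.

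The promoters of the hexokinases and the transporter are shown because Hk2, Hk1 and Slc2a1 went apart after injury in the values that follow. Each line is the 250 bases before a RefSeq start site (GRCm38.p6), read 5′ to 3′ on the gene's strand, with every ACGTG or GCGTG, on either strand, in capitals. Hk2 lies on chromosome 6, minus strand, Hk1 on chromosome 10, minus strand, with a pair of start sites, and Slc2a1 on chromosome 4, plus strand.
Hk2 (chr6:82774455-82774704): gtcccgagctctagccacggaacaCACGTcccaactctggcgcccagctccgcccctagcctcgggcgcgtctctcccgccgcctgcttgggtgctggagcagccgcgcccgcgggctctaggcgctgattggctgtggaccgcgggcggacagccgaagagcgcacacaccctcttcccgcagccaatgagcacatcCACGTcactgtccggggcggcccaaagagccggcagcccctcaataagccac
Hk1, upstream start (chr10:62379909-62380158): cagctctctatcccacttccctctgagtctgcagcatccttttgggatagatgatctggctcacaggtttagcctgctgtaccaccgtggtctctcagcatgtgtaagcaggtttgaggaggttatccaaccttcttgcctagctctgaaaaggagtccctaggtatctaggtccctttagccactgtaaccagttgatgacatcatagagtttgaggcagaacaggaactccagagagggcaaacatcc
Hk1, downstream start (chr10:62340422-62340671): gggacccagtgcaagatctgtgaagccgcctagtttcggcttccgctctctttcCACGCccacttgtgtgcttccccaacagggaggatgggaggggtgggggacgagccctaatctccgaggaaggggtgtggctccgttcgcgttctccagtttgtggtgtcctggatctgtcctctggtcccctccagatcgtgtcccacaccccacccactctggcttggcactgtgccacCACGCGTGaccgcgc
Slc2a1 (chr4:119108495-119108744): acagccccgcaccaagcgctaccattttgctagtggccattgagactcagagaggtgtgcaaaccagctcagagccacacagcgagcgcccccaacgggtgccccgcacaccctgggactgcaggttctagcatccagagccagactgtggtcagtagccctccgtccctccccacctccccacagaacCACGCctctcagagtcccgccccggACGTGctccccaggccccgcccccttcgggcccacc
The Hk2 window held matches at 226 and 52 bases before the start. The upstream Hk1 window held 0 matches and the downstream one 3. All 10 genes had a match in at least 1 of their promoters, and 14 of their 17 promoters held one. Of all 32851 promoters listed, 38.6% held one too, and the motif overlaps the CACGTG box that Myc and other factors bind. A match is a description of these letters, not a binding site.

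The files held 6852, 7311 and 5454 cells of protocol 2 and 5739 and 5662 of protocol 1, of which the filters left out 0 to 14 per library. Totals ran from 25962957 to 86661230 UMIs per library, with a median of 4299 to 11343.5 UMIs per cell and the deepest cells in the 72 h library. Pairs of libraries shared 33 to 74 cell barcodes, 0.605 to 1.31% of the smaller library. Leaving those barcodes out changed no count of genes below. Clustering named 6850, 7292 and 5431 HSC-like cells in the protocol 2 libraries, 4063 and 2638 fibroblast (FB)-like cells and 1510 and 2789 vascular smooth muscle cell (VSMC)-like cells in the protocol 1 libraries, all from marker genes that hold no glycolysis gene. Levels are counts-per-million (CPM), a gene's UMIs over all UMIs of the class, with exact 95% Poisson intervals. With 1 library per condition and protocol there is no replicate check, and intervals cover counting error only.

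The hexokinases of HSC-like cells differed in opposite directions between the libraries. Cells of the 3 libraries fell mostly into different clusters, so these are differences between largely non-shared clusters. Cluster 1 held 3995, 0 and 67 cells of the uninjured, 72 h and 6 week library and cluster 6 held 2462, 0 and 32. Cluster 3 held 2, 3246 and 21, cluster 10 held 9, 1498 and 31 and cluster 12 held 2, 1081 and 3. Cluster 7 held 181, 7 and 2301 and cluster 8 held 52, 15 and 1880. With 1 library per condition, library and condition cannot be told apart. Hk2, the inducible hexokinase that docks on mitochondria, stood at 20.8 CPM (19.5 to 22.1) in uninjured, 75.6 (73.8 to 77.5) in 72 h and 87.4 (84.9 to 90.0) in 6 week cells. That was 3.64-fold (3.4 to 3.90) higher at 72 h and 4.21-fold (3.93 to 4.52) higher at 6 weeks, the 97.8 and 99.5 percentile of all genes compared. Since Hk2 was selected on its level in injured HSC clusters of these data, the ranks follow from that choice and support nothing. Hk1, the housekeeping hexokinase, went the other way, with 39.4 CPM (37.7 to 41.3) in uninjured cells, 22.1 (21.1 to 23.1) at 72 h and 26.7 (25.3 to 28.1) at 6 weeks. Its folds were 0.560 (0.525 to 0.598) and 0.676 (0.630 to 0.726).

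Of all hexokinase UMIs, Hk2 thus made up 34.4% in uninjured HSC-like cells (exact binomial interval 32.6 to 36.2), 77.2% (76.2 to 78.0) at 72 h and 76.6% (75.5 to 77.6) at 6 weeks. Further family members had few UMIs. Hk3 had 3 to 13 UMIs per library and Hkdc1 had 0. The share of cells with an Hk2 UMI was 8.20% in uninjured, 36.9% in 72 h and 36.0% in 6 week cells. After each cell was thinned to 2000 UMIs, which left out 115 shallower uninjured cells and none of the injured ones, it was 3.31, 11.9 and 13.7%. The classes in these libraries include no cell type known to lack Hk2, so a share given by free RNA alone could not be read from one.

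Slc2a1, the basal glucose transporter, differed between the injuries. It measured 17.4 CPM (16.2 to 18.6) in uninjured HSC-like cells, 12.1 (11.4 to 12.9) at 72 h and 23.1 (21.8 to 24.4) at 6 weeks. The 6 week library thus lay 1.91-fold (1.75 to 2.07) above the 72 h library. Slc2a1 held 96.3%, 87.2% and 94.6% of the UMIs of Slc2a1 to Slc2a4 in these libraries, with Slc2a3 and Slc2a4 at 13 to 95 UMIs and the hepatocyte transporter Slc2a2 at 0 to 20.

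**Figure D1:**
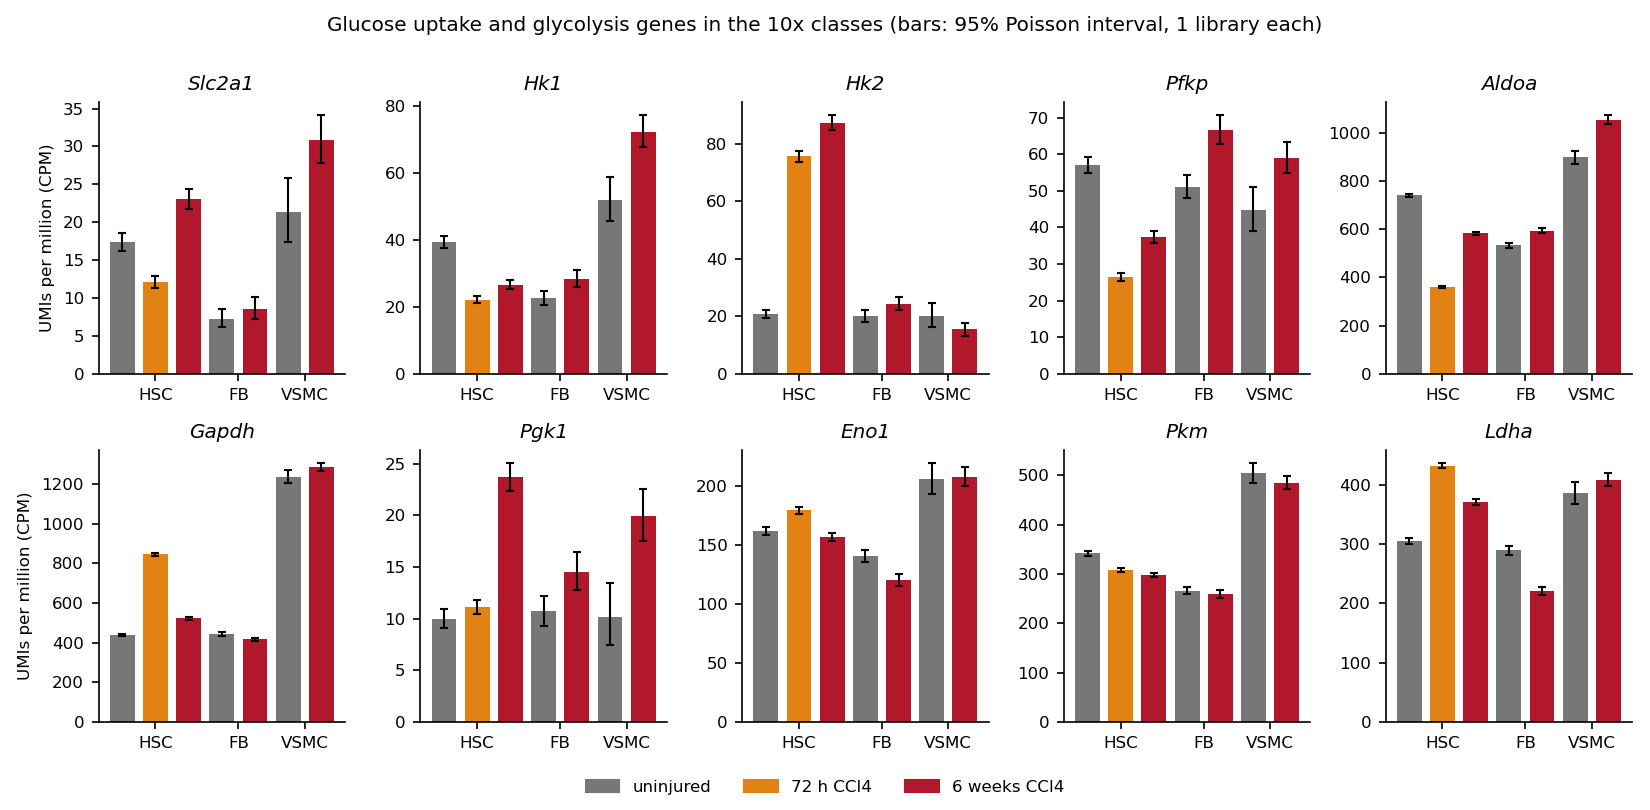
Level of each of the 10 genes in HSC-like, FB-like and VSMC-like cells of the 10x libraries, in CPM (linear axis from 0, own scale per gene). Each bar is 1 library with its exact 95% Poisson interval, which covers counting error only. Hk2 of HSC-like cells stood at 20.8 CPM in the uninjured library and 75.6 and 87.4 CPM in the injured ones, while FB-like and VSMC-like values of Hk2 lay between 15.4 and 24.3 CPM.

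The enzymes of the middle of the pathway were lower at 72 h and closer to the uninjured level at 6 weeks. Pfkp, the platelet-type phosphofructokinase, had 57.0 CPM (54.8 to 59.2) in uninjured, 26.3 (25.3 to 27.4) in 72 h and 37.4 (35.8 to 39.1) in 6 week HSC-like cells. Aldoa, which splits fructose 1,6-bisphosphate, had 740 CPM (732 to 748), 360 (356 to 364) and 583 (576 to 590). At 72 h the folds were 0.462 (0.437 to 0.489) for Pfkp and 0.486 (0.479 to 0.494) for Aldoa.

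Pfkl, the liver-type phosphofructokinase, did not follow Pfkp. Its level was 36.9, 37.1 and 45.6 CPM in the same order, and Pfkp made up 53.5% (52.1 to 54.9) of the phosphofructokinase UMIs in uninjured cells, 36.6% (35.4 to 37.8) at 72 h and 40.2% (38.8 to 41.6) at 6 weeks. Each 3′ UMI counts a molecule once, so shares within a family do not depend on transcript length.

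Gapdh, which couples the oxidation of glyceraldehyde 3-phosphate to NADH, measured 439 CPM (433 to 445) in uninjured, 845 (839 to 851) in 72 h and 523 (517 to 529) in 6 week HSC-like cells. It was 1.93-fold (1.90 to 1.96) higher at 72 h, and the 6 week library then stood at 0.619 (0.610 to 0.627) of the 72 h level. Pgk1, the first ATP-yielding kinase of the pathway, had 9.94 CPM (9.05 to 10.9), 11.1 (10.4 to 11.8) and 23.7 (22.4 to 25), a 2.38-fold (2.14 to 2.66) difference at 6 weeks. Eno1, which makes phosphoenolpyruvate, moved little, from 162 CPM (158 to 166) to 179 (177 to 182) and 157 (153 to 160).

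Reads of this trio are the least certain of the list. Of the 50-base stretches of the annotated transcripts, 82.5% of Gapdh, 72.2% of Eno1 and 68% of Pgk1 also occur in other annotated genes (218, 9 and 5 genes), chiefly processed copies. Within the last 500 bases, where 10x reads start, the shares are 91.4, 77.6 and 16.4%. For Pkm and Ldha the last 500 bases share none, for Aldoa 3%, and Hk1, Hk2, Slc2a1 and Pfkp share none over the whole transcript. Hk1 overlaps an antisense gene, Hk1os.

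At the end of the pathway, Pkm, which encodes the muscle pyruvate kinases, had 342 CPM (336 to 347), 307 (304 to 311) and 298 (293 to 303). Ldha, the lactate-producing dehydrogenase subunit, had 305 CPM (300 to 310), 432 (428 to 437) and 371 (366 to 376), folds of 1.42 (1.39 to 1.45) and 1.22 (1.19 to 1.24). Ldha made up 96.4 to 98% of the lactate dehydrogenase UMIs of HSC-like cells, the rest being Ldhb.

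The counts are given beside those of all genes. At least 1.5-fold higher than uninjured were 2 of the 10 genes at 72 h (Hk2 and Gapdh), where 13.3% of the 6229 genes with at least 20 CPM in either library were, and 3 of the 10 were at least 1.5-fold lower (Hk1, Pfkp and Aldoa), where 26.4% were. At 6 weeks 2 were higher (Hk2 and Pgk1; 6.19% of 6011 genes) and 1 was lower (Pfkp; 11.3%). Between the injuries 3 were higher at 6 weeks (Slc2a1, Aldoa and Pgk1; 12.7% of 5835 genes) and 1 lower (Gapdh; 11.8%). Values of these comparisons helped to choose the list, so nothing is read from the counts. Slc2a1 and Pgk1 were below the 20 CPM minimum in the first comparison and were counted all the same.

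The sum of all 10 genes differed little in size between libraries, though the uninjured and 72 h intervals lay apart. It was 2132 CPM (2118 to 2145) in uninjured, 2272 (2261 to 2282) in 72 h and 2129 (2117 to 2142) in 6 week HSC-like cells. At 72 h the lower Aldoa (740 and 360 CPM) and the higher Gapdh (439 and 845 CPM) largely offset each other in it. Gapdh reads are among the least certain, so the sum does not show that the pathway as a whole was unchanged. The median log2 fold of the 10 genes was 0.00 at 72 h and 0.10 at 6 weeks, beside -0.21 and -0.22 over all genes compared. TMM scaling would add 0.14 and 0.18 to each log2 fold. Then 3 genes were higher and 3 lower at 72 h (Ldha joined, at 1.56-fold), and 3 were higher and 0 lower at 6 weeks (Slc2a1 joined, at 1.5-fold, and Pfkp stood at 0.743). The shares over all genes under this scaling are not given, so nothing is read from these counts. Eno1 at 6 weeks turned from a fold of 0.969 to 1.10.

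**Figure D2:**
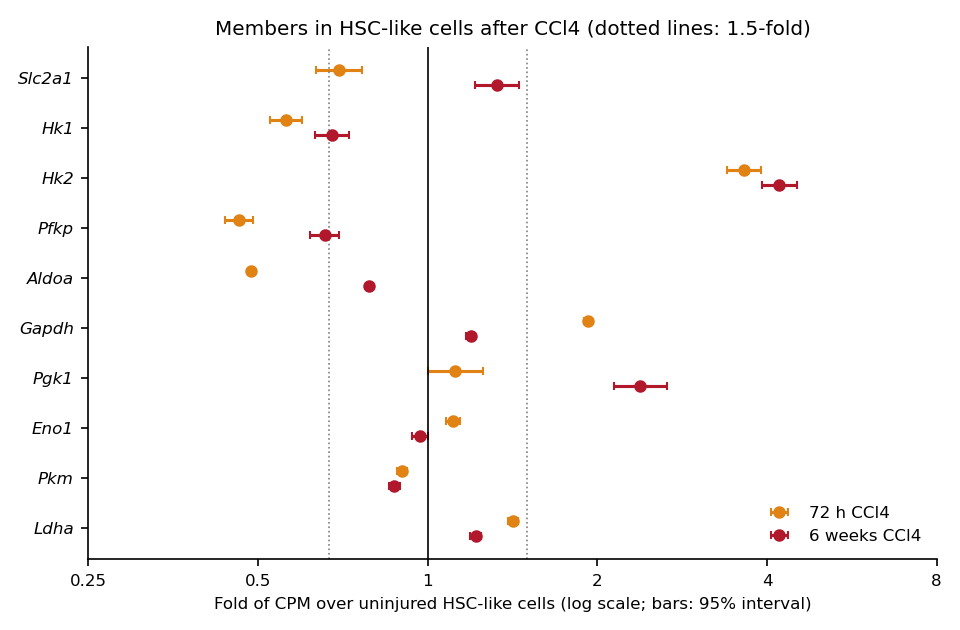
Fold of CPM of each of the 10 genes in HSC-like cells 72 h after CCl4 and after 6 weeks of CCl4 over uninjured HSC-like cells (log axis), with 95% intervals that cover counting error only. Dotted lines mark 1.5-fold either way. Hk2 lies past the upper line in both injuries (3.64 and 4.21-fold), Pfkp below the lower one in both (0.462 and 0.657), and Gapdh past the upper line only at 72 h (1.93).

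The other genes of the pathway were counted by list. Of 19 further transporters and enzymes of glycolysis, 5 reached 20 CPM at 72 h and 1 was past 1.5-fold: Slc16a3, the lactate exporter MCT4, at 5.13 CPM in uninjured, 22.4 in 72 h and 7.08 in 6 week cells. Of 9 genes of pyruvate entry into mitochondria, Pdk3, a kinase that inhibits pyruvate dehydrogenase, was higher at 72 h (8.32 CPM in uninjured cells against 24.2) and 1 was lower, Dlat, a subunit of that dehydrogenase (32.1 and 19.4 CPM). Of 7 pentose phosphate genes 0 were higher and 2 lower at 72 h, Rpe and Rpia, and Rpia, the ribose 5-phosphate isomerase, had 25.5 CPM in uninjured and 3.92 in 72 h cells. At 6 weeks 0 of them passed 1.5-fold. Slc16a3 and Pdk3 passed the 20 CPM minimum only through the 72 h library, and Dlat and Rpia only through the uninjured one. The filter thus fixed the direction of their 72 h calls, and nothing is read from those.

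The hypoxia list, chosen without the 10 genes, held 15 genes of which 9 could be compared. At 72 h 0 of these were higher and 3 lower, namely Adm, Ddit4 (37.1 CPM in uninjured cells, 15.5 at 72 h) and P4ha1, a collagen prolyl hydroxylase subunit (161 and 80.9 CPM). At 6 weeks 0 were higher than uninjured and 1 was lower, Ero1l (33.3 and 21.1 CPM). Over 72 h, 4 were higher at 6 weeks and 0 lower: Ddit4 (54.0 CPM at 6 weeks), Bnip3 (13.8 and 28.2), P4ha1 (162 at 6 weeks) and Hilpda (45.5 and 70.1). Ddit4 and Bnip3 passed the 20 CPM minimum there only through the 6 week library. Ddit4 passed it at 72 h over uninjured only through the uninjured one. The filter thus fixed the direction of those calls. Genes of the list under 20 CPM, named after their values were seen, included Vegfa at 1.70 CPM (1.35 to 2.12) in uninjured and 5.75 (5.12 to 6.44) in 6 week cells, Ankrd37 at 1.66 (1.31 to 2.07) and 6.23 (5.57 to 6.95), and Mxi1 at 7.95 (7.16 to 8.81) and 13.8 (12.8 to 14.8), all more than 1.5-fold apart. Kdm3a, also under the minimum, differed little, at 15.65 and 17.4 CPM. Egln3 and Car9 had 0 CPM in uninjured and 0.328 and 0.0965 in 6 week cells. As these genes were under the minimum, nothing is read from them. Among 5 regulators, Myc had 62.2 CPM in uninjured, 37.5 in 72 h and 109 in 6 week cells, 1.75-fold (1.67 to 1.83) higher at 6 weeks, while Hif1a had 49.7, 41.5 and 39.6.

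Several features of the libraries moved together with these levels, and their part in them was not tested. Summed immediate early genes (9 genes such as Fos, Jun and Egr1) had 12590 CPM in uninjured, 6282 in 72 h and 10490 in 6 week HSC-like cells, and summed heat shock genes (9 genes) 3622, 1433 and 3552. Cells with UMIs of at least 2 of 9 mitotic genes made up 2.37, 40.9 and 7.13%. Cells with at least 3 hepatocyte markers were 1.40, 0.247 and 1.58% of the class, with a summed level of all 6 markers of 55.4, 12.7 and 44.9 CPM. The 5 mesothelial markers summed to 1.10, 34.2 and 38.2 CPM, all of it Wt1, with Msln, Upk3b, Lrrn4 and Upk1b at 0 in each library. The 5 leucocyte markers summed to 3.62, 13.2 and 10.2 CPM, with Cd3e at 0 in each, while the endothelial, cholangiocyte and erythroid lists summed to at most 6.10 CPM, and 0 cells had 3 markers of any of these lists. Of 8 FB markers 3 could be compared at 72 h and 2 at 6 weeks, and all of these were at least 1.5-fold higher. A marker under 20 CPM in uninjured cells could be compared only through an injured library where it was high, so nothing is read from this count. Of 4 VSMC markers compared 3 were higher in both injuries, and of 7 HSC markers 6 were lower at 72 h and 4 at 6 weeks. The median mitochondrial share of UMIs was 1.75, 2.75 and 1.75%. Leaving out the cells with 3 hepatocyte markers changed no count of the 10 genes. Without the cells holding 2 mitotic genes the counts at 72 h were again 2 higher and 3 lower, while at 6 weeks 2 genes instead of 1 were lower than uninjured (Hk1, at 0.660, joined Pfkp). Of the 4 genes past 1.5-fold between the injuries 2 then remained (Slc2a1 and Pgk1), with Aldoa at 1.42-fold and Gapdh at 0.668. The shares over all genes without the mitotic cells are not given, so nothing is read from these counts.

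In the protocol 1 libraries 0 of the 10 genes passed 1.5-fold in the FB-like class and 1 did in the VSMC-like class. In FB-like cells 0 were at least 1.5-fold higher (4.67% of 6012 genes) and 0 lower (1.86%), with folds from 0.762 (0.731 to 0.794) for Ldha to 1.36 (1.12 to 1.64) for Pgk1. Hk2 had 20.1 CPM (18.2 to 22.1) in uninjured and 24.3 (22.0 to 26.8) in 6 week FB-like cells. In VSMC-like cells 1 was higher (8.2% of 5780 genes) and 0 lower (2.44%). It was Pgk1, at 10.1 CPM (7.46 to 13.4) and 19.9 (17.5 to 22.6), under the 20 CPM minimum in both libraries.

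In VSMC-like cells Hk2 was lower at 6 weeks, with 20.2 CPM (16.4 to 24.7) in uninjured and 15.4 (13.3 to 17.7) in 6 week cells. The interval of its fold, 0.592 to 0.982, and that of the 6 week HSC-like fold, 3.93 to 4.52, lay apart, but the classes came from other digestions and other libraries, and with 1 library each the difference has no replicate check. Hk1 had 51.9 CPM (45.6 to 58.8) and 72.4 (67.8 to 77.3) there, and made up 71.9% and 82.5% of the hexokinase UMIs.

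By cell class, uninjured VSMC-like cells were highest for Gapdh (1237 CPM), Aldoa (898), Pkm (504), Eno1 (206) and Ldha (386). Slc2a1 was lowest in FB-like cells, at 7.23 CPM (6.11 to 8.51) in uninjured and 8.61 (7.27 to 10.1) in 6 week cells. Its paralog Slc2a4, the insulin-regulated transporter of muscle and fat, held 83.8% of the transporter UMIs in uninjured VSMC-like cells, at 165 CPM against 0.280 in HSC-like cells. Ldhb, the heart-type subunit, made up 19.2 and 28.2% of lactate dehydrogenase UMIs in FB-like and 29.2 and 28.3% in VSMC-like cells. The summed level of the 10 genes was 1785 and 1753 CPM in FB-like and 3379 and 3639 in VSMC-like cells.

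Within HSC-like cells, Hk2 differed widely between clusters. In the uninjured library cluster 1 (3995 cells) had 6.20 CPM (5.26 to 7.25) and cluster 6 (2462 cells) 38.6 (35.8 to 41.6). In the 6 week library cluster 7 (2301 cells) had 162 CPM (156 to 167), cluster 8 (1880 cells) 32.7 (30.1 to 35.5) and cluster 13 (753 cells) 10.8 (8.56 to 13.4). Hk2 is one of the 10 leading genes of cluster 7 and was selected on its level in injured HSC clusters, so its level there is a description.

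Among these clusters of the uninjured and of the 6 week library, those with much Hk2 were those with many immediate early transcripts. Summed immediate early CPM was 5392 in cluster 1 and 22450 in cluster 6 of the uninjured library, and 17500 in cluster 7, 5226 in cluster 8 and 3276 in cluster 13 of the 6 week library. These genes are switched on quickly by many stimuli, and whether their transcripts date from the animal or from the isolation of the cells was not tested. At 72 h the contrast among clusters 3, 10 and 12 was smaller. Hk2 was at 95.5 CPM (92.6 to 98.4) in cluster 3, 89.0 (83.0 to 95.3) in cluster 10 and 59.6 (56.0 to 63.4) in cluster 12, where cell cycle genes were high. Their immediate early sums were 7376, 6436 and 4496 CPM. Clusters 11 (1081 cells) and 15 (358 cells) of that library had immediate early sums of 5678 and 3358 CPM. Their Hk2 levels are not given here, and the sum of cluster 11 was above that of cluster 12. The order of clusters 3, 10 and 12 thus does not stand for the whole 72 h library, and nothing is read from it. Between libraries the pattern did not hold. Clusters 3, 10 and 12 at 72 h had more Hk2 but fewer immediate early transcripts than cluster 6 of the uninjured library.

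All HSC-like cells were therefore ranked by the share of their UMIs taken by the 9 immediate early genes and split at 0.344, 0.703 and 1.27% of UMIs. From the lowest to the highest bin, Hk2 went through 1.81, 5.94, 17.0 and 40.7 CPM in the uninjured library. The same bins had 19.0, 71.8, 109 and 124 CPM in the 72 h library and 8.41, 26.9, 73.2 and 175 CPM in the 6 week library. Hk2 was thus higher in each bin than in the one before it in all 3 HSC libraries, while depth differed little between the outer bins, with median UMIs of 6096.5 and 7149, 10413 and 10714, and 9264 and 10360.

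The ratio of the highest to the lowest bin was 22.4 (14.3 to 37.5) in uninjured, 6.53 (5.69 to 7.50) in 72 h and 20.8 (17.3 to 25.2) in 6 week HSC-like cells. The immediate early genes themselves left out, it lay above 99.95, 99.86 and 99.96% of the 6035, 5780 and 5615 genes compared. Hk2 was selected on its level in injured HSC clusters, and cluster 7, of which it is a leading gene, also had many immediate early transcripts. These ranks, the contrast with the other 9 genes and the counts that follow thus draw on values behind that choice and support nothing. For the other 9 genes the ratio ran only from 0.741 to 1.24 over the 3 libraries. Past 1.5-fold higher was therefore 1 of the 10 genes in each library, where 2.19, 4.29 and 2.85% of genes were, and 0 were past 1.5-fold lower (0.829, 9.46 and 2.32%). As cells of 1 library are not replicates, no test was made.

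**Figure D3:**
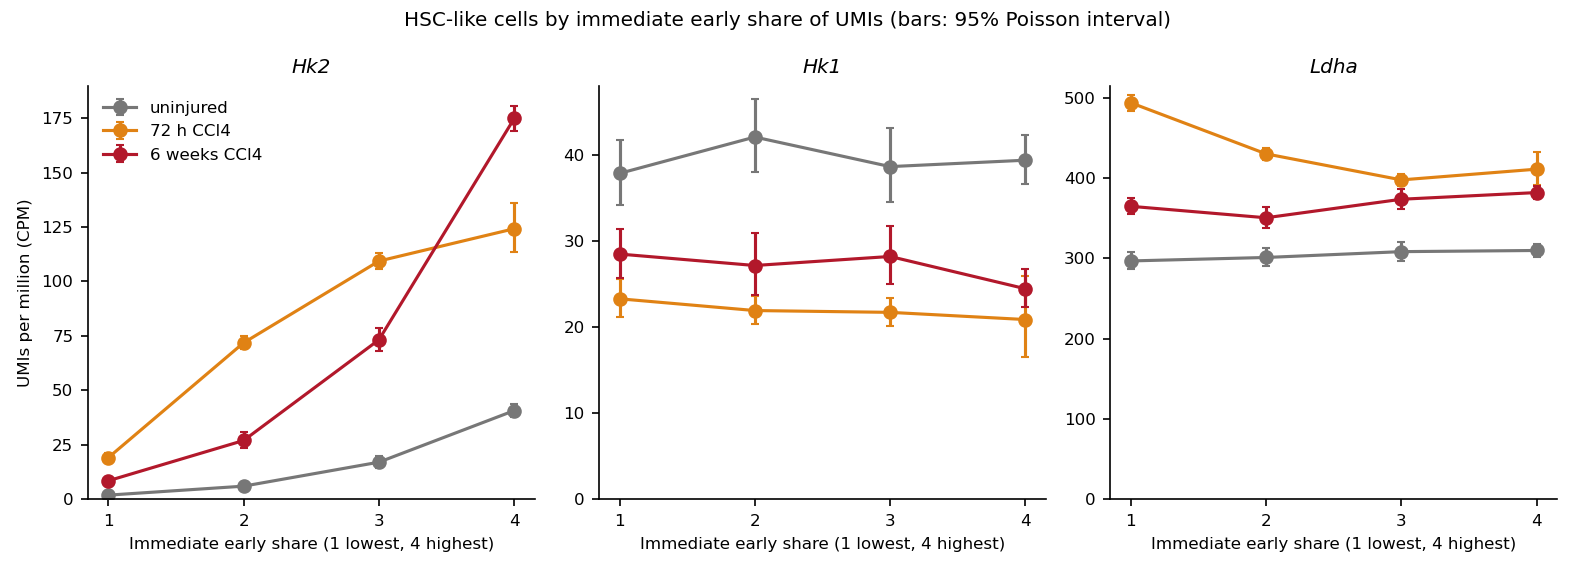
Level of Hk2, Hk1 and Ldha in CPM (linear axis from 0) in HSC-like cells of each library, by bin of the immediate early share of UMIs from 1 (lowest) to 4 (highest). Bars are exact 95% Poisson intervals. Hk2 was selected on its level in injured HSC clusters, so its contrast with the other genes is a description. In the 6 week cells Hk2 stood at 8.41 CPM in the lowest and 175 CPM in the highest bin, while the ratio of the highest to the lowest bin lay between 0.741 and 1.24 for the other 9 genes, Hk1 and Ldha among them.

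Hk2 was also compared among cells with few of these transcripts. The part of the immediate early genes in the Hk2 difference was not tested by this. Only cells below the uninjured median share (0.827% of UMIs) were kept, an alternative chosen after seeing the data. The fold of Hk2 was then 12.2 at 72 h and 3.88 at 6 weeks, and the 6 week library lay at 0.318 of the 72 h library instead of 1.16. Of the 10 genes, 2 were then higher and 3 lower at 72 h, 2 and 0 at 6 weeks, and 3 and 2 between the injuries. The shares over all genes among these cells are not given, so nothing is read from these counts. In the lowest bin alone, 0.298% of thinned uninjured cells had an Hk2 UMI against 3.54% at 72 h and 1.5% at 6 weeks; unthinned these shares were 0.872, 13.0 and 5.94%.

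At the same cuts, the ratio of Hk2 in the other classes was smaller than in HSC-like cells of the same condition. All ratios of the other classes rested on few UMIs in the lowest bin. The ratio was 1.75 (0.961 to 3.56) in uninjured FB-like and 2.37 (1.05 to 6.61) in 6 week VSMC-like cells, with 11 and 6 Hk2 UMIs there. It was 9.80 (3.32 to 47.9) in 6 week FB-like cells and 2.99 (0.799 to 25.1) in uninjured VSMC-like cells, but these rest on 3 and 2 Hk2 UMIs in the lowest bin. In uninjured and 6 week FB-like cells 1 and 1 of the 10 genes were at least 1.5-fold higher (4.82 and 5.34% of genes) and 1 and 2 lower (7.67 and 9.99%). Among VSMC-like cells the counts were 2 and 1 higher (11.5 and 5.51%) and 0 and 2 lower (13.9 and 5.23%). Summed immediate early levels were 13240 and 12270 CPM in FB-like and 16770 and 12580 CPM in VSMC-like cells.

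Along an expression score of zonation genes the 10 genes did not go together. The position of these cells in the lobule was not measured. Cells of each library were split into 4 bins from central vein-associated to portal vein-associated with 81 zonation genes, a list the study chose on uninjured cells of these libraries. At 72 h Hk2 had 87.5, 87.8, 82.7 and 39.3 CPM from the most central to the most portal bin, and at 6 weeks 110.0, 103, 91.7 and 43.7. Uninjured cells had 19.3, 25.1, 21.8 and 16.5 CPM. Hk2 was thus lowest in the most portal bin of each library, and the gap was widest after injury.

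Ldha, Pkm, Aldoa and Gapdh ran the opposite way in injured cells. Ldha went from 336 CPM in the most central to 552 in the most portal bin at 72 h, Pkm from 256 to 398, Aldoa from 318 to 470 and Gapdh from 748 to 965. At 6 weeks these were 329 and 416 for Ldha, 267 and 341 for Pkm, 497 and 727 for Aldoa, and 473 and 614 for Gapdh. In uninjured cells Ldha went from 310 to 283 and Pkm from 352 to 331. Pgk1 and Eno1 by this score, and the uninjured values of Aldoa and Gapdh, are not given.

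Cells were also ranked by fibrillar collagen. From the lowest to the highest bin of Col1a1, Col1a2 and Col3a1 at 72 h, Hk2 had 40.2, 73.9, 94.0 and 86.1 CPM, whereas Ldha had 557, 440, 407 and 355 and Slc2a1 16.4, 12.8, 11.2 and 9.06. At 6 weeks Hk2 had 74.0, 94.9, 102 and 77.8 CPM, with both outer bins below the middle ones.

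Cells with UMIs of at least 2 mitotic genes were set beside the rest. The call was made without thinning and takes in deeper cells, with a median of 12618 against 10465 UMIs at 72 h, and it marked 2980 cells there, whereas clusters 12 and 15, with cell cycle sums of 3297 and 3917 CPM, held 1081 and 358. The other clusters of that library summed to 142.6 to 171.3 CPM. At 72 h Hk2 was 65.1 CPM (62.6 to 67.6) in the 2980 marked and 85.3 (82.6 to 88.0) in the 4312 other HSC-like cells, and at 6 weeks 57.4 (50.7 to 64.8) and 90.3 (87.6 to 93.0). Gapdh was 946 and 752 CPM at 72 h, and Aldoa 308 and 408. Cluster 12 held the lowest Aldoa of the clusters with at least 50 cells, 191 CPM.

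Cells with an Hk2 UMI were compared with those without one, all thinned to 2000 UMIs (223, 866 and 743 cells with one). Ratios of the other 9 genes were between 0.578 and 1.36. Fos was 1.83, 1.28 and 1.83 times as high in the cells with Hk2 in the uninjured, 72 h and 6 week library, and Junb 1.73, 1.27 and 1.93 times.

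Over the 28 sums of cluster and library with at least 50 cells, from 5 libraries, the genes whose log2 level ran most like Hk2 were Pim1, a serine kinase (Pearson r = 0.742), Thbs1, a matricellular protein (0.737), Npm1, a nucleolar chaperone (0.707), Egr2, an immediate early transcription factor (0.705), and Snhg6 (0.679). These sums share libraries and depth, and r is a description. Within the list r ran from -0.662 between Pfkp and Ldha to 0.804 between Gapdh and Eno1, and Hk2 against Hk1 had -0.423.

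The plates gave replicates for FB-like and VSMC-like cells. Of 2292 wells, 2065 were kept, with a median of 445569 reads. Reads were summed per portion, meaning the wells of 1 mouse label on 1 plate, over plates 1 to 5. There were 5 uninjured, 4 BDL and 4 CCl4 portions of FB-like cells and 5, 5 and 4 of VSMC-like cells. Whether 1 mouse supplied wells to several plates is not given in the labels, so p-values measure the spread between portions, which may be technical. Levels are reads-per-million (RPM), over all reads assigned to genes.

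None of the 10 genes passed the test (edgeR quasi-likelihood, plate as a term, Benjamini-Hochberg over all genes) in any of the 4 comparisons. In FB-like cells 0 of 10 genes were called after BDL, where 0.0331% of 15124 genes were called higher and 0.0198% lower, and 0 of 10 after CCl4 (0.0595 and 0%). In VSMC-like cells 0 of 10 were called after BDL (0.00699% of 14307 genes higher, 0% lower) and 0 of 10 after CCl4 (0 and 0%). At an unadjusted p under 0.05 there were 3, 3, 1 and 0 of the 10 genes and 1325, 944, 995 and 470 of all genes. DESeq2, run as an alternative, called 2, 2, 1 and 0 of the 10. It called 696, 468 and 430 of all genes in the first 3 comparisons, far more than edgeR, so nothing is read from its counts.

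Slc2a1 came closest in FB-like cells. The uninjured portions had 32.1, 21.6, 19.7, 23.2 and 18.6 RPM on plates 1 to 5, the BDL portions 64.3, 79.3, 56.2 and 65.0, and the CCl4 portions 34.5, 43.4, 70.0 and 84.6. All injured portions lay above all uninjured ones. The mean was 23.0 ± 5.38 RPM (SD, n = 5) in uninjured, 66.2 ± 9.59 (n = 4) in BDL and 58.1 ± 23.2 (n = 4) in CCl4 portions, log2 fold changes of 1.37 (SE 0.32, edgeR adjusted p = 0.202) and 1.5 (SE 0.38, edgeR adjusted p = 0.276).

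Hk2 in FB-like cells had 6.55, 16.9, 11.4, 11 and 7.45 RPM in uninjured portions. The BDL portions had 21.3, 10.9, 52.3 and 65.1, and the CCl4 portions 10.7, 11.1, 17.7 and 31.1. The groups overlapped in both comparisons. After BDL a portion of 12 wells, at 10.9 RPM, fell within the uninjured range, and after CCl4 the portions at 10.7 and 11.1 RPM did. The log2 fold change was 1.81 after BDL (SE 0.55, edgeR adjusted p = 0.351) and 0.75 after CCl4 (SE 0.63, edgeR adjusted p = 0.936).

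Ldha in FB-like cells had 161, 185, 133, 212 and 225 RPM in uninjured portions, 222, 362, 229 and 394 after BDL and 403, 244, 482 and 423 after CCl4. The CCl4 portions were all above the uninjured ones, and the lowest BDL portion was within their range. The log2 fold changes were 0.75 (SE 0.27, edgeR adjusted p = 0.465) and 1.16 (SE 0.31, edgeR adjusted p = 0.316). Pkm had 132 ± 24.6 RPM (SD, n = 5) in uninjured, 172 ± 77.6 (n = 4) in BDL and 229 ± 31.4 (n = 4) in CCl4 portions.

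In total 1 of the 10 genes had every BDL portion of FB-like cells above every uninjured portion (Slc2a1), where 1.86% of all genes did. After CCl4 5 of the 10 did (Slc2a1, Aldoa, Gapdh, Pkm and Ldha), where 3.8% of all genes did. In FB-like cells 0 of the 10 lay wholly below after BDL or CCl4 (1.73 and 1.63% of genes). In VSMC-like cells 0 of the 10 lay wholly above or below after BDL (2.87% of genes), and 1 did after CCl4 (Eno1, above; 1.34%). Eno1 rested on 11 to 55 reads per VSMC-like portion, and in uninjured FB-like wells the median was 5 reads for Gapdh and 0 for Eno1 and Pgk1.

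None of the 10 genes passed the test in VSMC-like portions either. Ldha had 328 ± 93.5 RPM (SD, n = 5) in uninjured, 508 ± 106 (n = 5) in BDL and 359 ± 66.7 (n = 4) in CCl4 portions, with a log2 fold change of 0.88 after BDL (SE 0.26, edgeR adjusted p = 0.527). Hk2 had 8.30 ± 3.67, 8.39 ± 7.02 and 6.61 ± 3.78 RPM. Hk1 had 132 ± 30.4, 138 ± 36.0 and 140.5 ± 18.3 RPM, and lower FB-like means of 45.5 ± 11.9 (n = 5), 42.5 ± 9.11 (n = 4) and 47.5 ± 11.1 (n = 4).

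**Figure D4:**
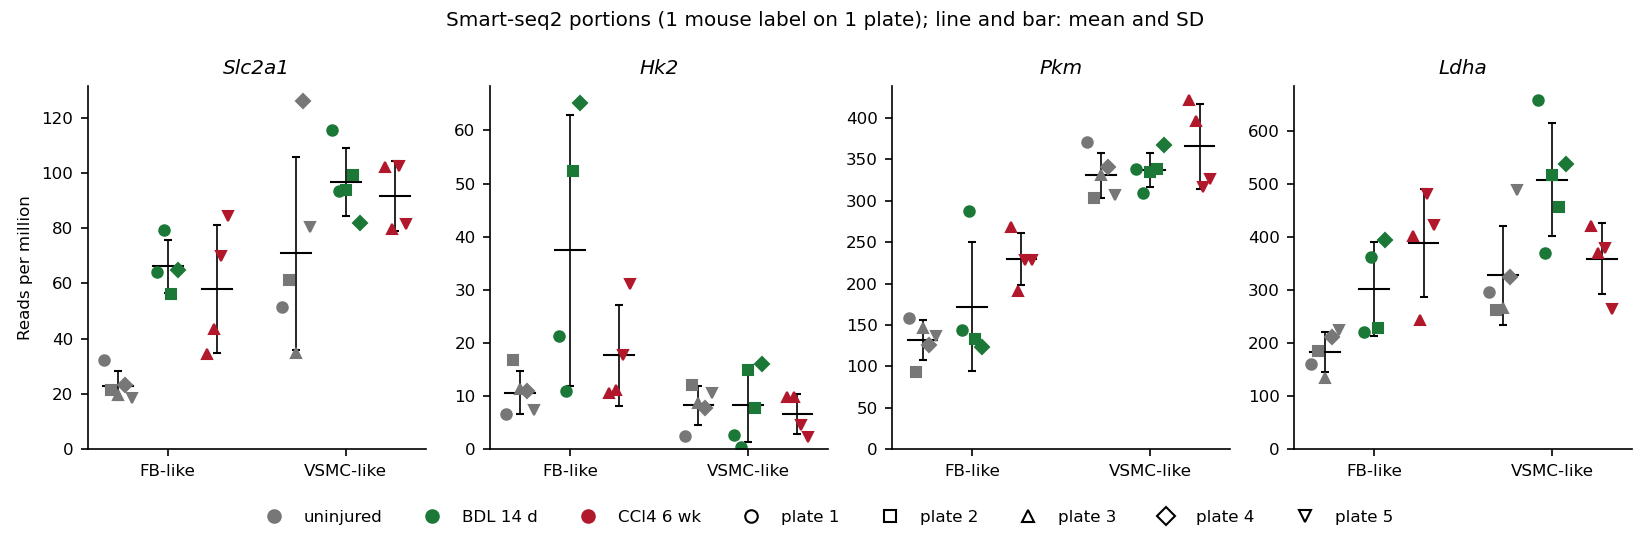
RPM (linear axis from 0) of Slc2a1, Hk2, Pkm and Ldha in each SS2 portion of FB-like and VSMC-like cells. Each point is 1 mouse label on 1 plate, the shape gives the plate, the long line is the group mean and the bar 1 SD either way. The 4 BDL and 4 CCl4 portions of Slc2a1 in FB-like cells (34.5 to 84.6 RPM) lie above the 5 uninjured portions (18.6 to 32.1 RPM).

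Among FB-like wells the CCl4 levels of Slc2a1, Pkm and Ldha were highest in cluster 8. Cluster 8 of the plates had no uninjured well, 12 BDL wells and 144 of the 254 FB-like CCl4 wells (56.7%), from all 4 CCl4 portions, and was led by Serpinb2, Calca, Chl1, Cxcl5 and Saa3. Its CCl4 wells, 75 of the 144 from 1 portion, had 84.3 RPM of Slc2a1, 305 of Pkm and 592 of Ldha. Clusters were drawn from the same reads, so this is a description. The CCl4 wells of clusters 2, 6 and 10 had 34.1, 22.2 and 25.3 RPM of Slc2a1 and 168, 193 and 243 of Ldha. The uninjured wells of the same clusters had 12.3, 18.1 and 24.3 RPM of Slc2a1 and 193, 157 and 204 of Ldha, so Slc2a1 was higher in CCl4 wells of clusters 2 and 6 too and close to the uninjured level in cluster 10.

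Without the wells of cluster 8, a choice made after seeing the data, the CCl4 log2 fold changes were 0.64 for Slc2a1, 0.24 for Ldha, 0.14 for Pkm and -0.77 for Hk2, and those after BDL were 1.32, 0.60, 0.13 and 1.75. The 10x libraries of FB-like cells, at the same 6 weeks, had folds of 1.19 (0.940 to 1.51) for Slc2a1 and 0.762 for Ldha. The leading genes of cluster 8 named above did not go together there. Serpinb2 had 0 UMIs in both libraries. Uninjured and 6 week cells had 0 and 1.95 CPM of Calca, 0.297 and 0.413 of Chl1, 13.2 and 11.1 of Cxcl5, and 0.644 and 22.5 of Saa3.

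Markers of other cell types moved with these FB-like results, and their part was not tested. The 5 mesothelial markers (Msln, Upk3b, Wt1, Lrrn4 and Upk1b) summed to 25.7 to 78.7 RPM over the uninjured, 78.9 to 369 over the BDL and 157 to 488 over the CCl4 portions of FB-like cells. In cluster 8 they summed to 569 RPM, of which Wt1 gave 446, with none at 0, and 23 of its 156 wells had reads of at least 3 of them, against 11100 RPM in the unnamed cluster of 27 wells that they led. In FB-like clusters 2, 6 and 9 Wt1 gave 24.4 of 29.5, 103 of 103 and 289 of 289 RPM of this sum, while cluster 10 summed to 3.84 RPM. In clusters 2, 6, 9 and 10, 0, 1, 1 and 0 wells had reads of at least 3 of the markers. VSMC-like portions had 0 to 1.13 RPM of the mesothelial markers. The 5 cholangiocyte markers summed to 0 to 5.41 RPM over the uninjured, 0.214 to 25.3 over the BDL and 5.71 to 42.3 over the CCl4 portions of FB-like cells, so all CCl4 portions lay above all uninjured ones. In cluster 8 they summed to 37.2 RPM, of which Krt19 gave 31.3, with Epcam and Cldn4 at 0. After BDL the heat shock and immediate early genes were lower in FB-like portions, with median log2 fold changes of -1.39 and -0.64, and 0 of 9 passed the test in either list.

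**Figure D5:**
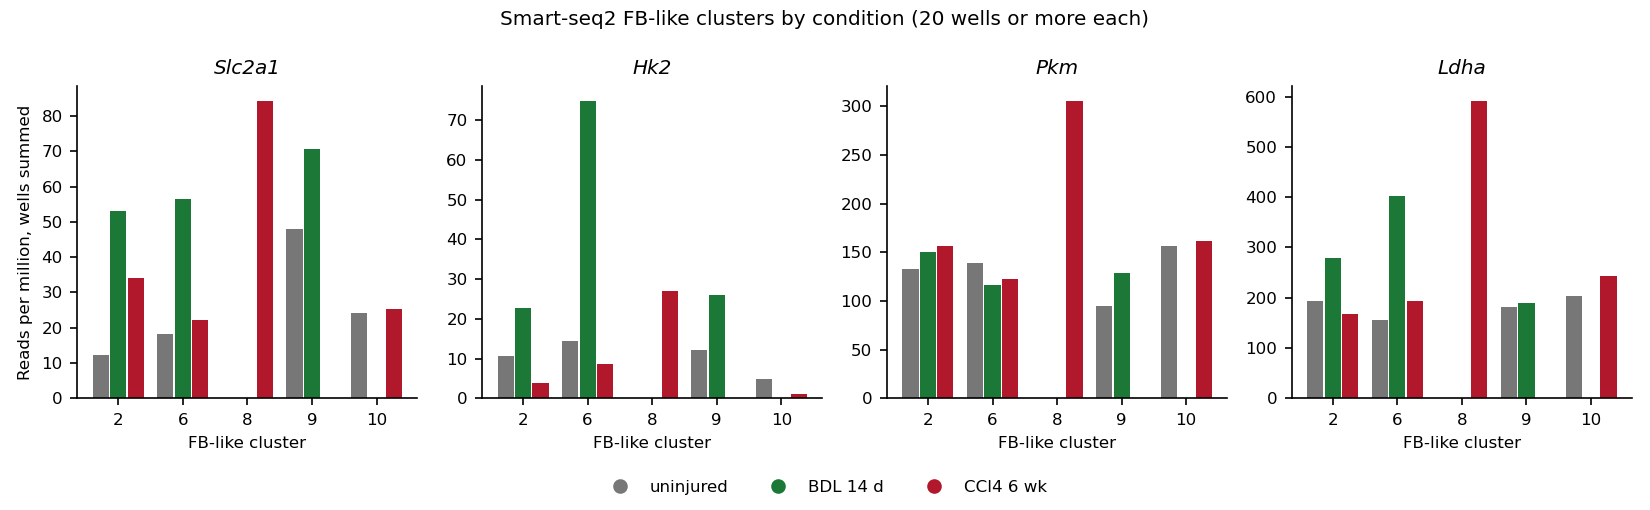
RPM (linear axis from 0) of Slc2a1, Hk2, Pkm and Ldha in the FB-like clusters of the SS2 plates by condition, with the wells of a cluster and condition summed and bars only where there were at least 20 wells. Bars carry no error, since they are sums. The CCl4 wells of cluster 8 had 592 RPM of Ldha against 168 to 243 in those of clusters 2, 6 and 10.

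In the BDL wells Hk2 was highest in cluster 6, at 74.9 RPM against 14.4 in its uninjured wells, with Ldha at 402 against 157. Of these 86 BDL wells 70 came from 1 portion, so this is largely the value of 1 mouse label on 1 plate. Clusters 2 and 9 had 22.7 and 26.0 RPM of Hk2 in BDL and 10.7 and 12.1 in uninjured wells. Of their BDL wells, 52 of 111 in cluster 2 and 68 of 74 in cluster 9 came from 1 portion. The cluster 9 value is thus also largely that of 1 mouse label on 1 plate.

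The immediate early ranking was repeated on the plates within each portion of at least 20 wells, plate 6 included, comparing the upper with the lower part of its wells, a check chosen after the 10x pattern was seen. Hk2 was higher in the upper part in 6 of 12 FB-like portions (median log2 ratio -0.12, exact sign-flip permutation p = 0.72, adjusted over 20 tests 0.96) and in 8 of 15 VSMC-like portions (0.47, p = 0.471, adjusted 0.857). Only Pgk1 in FB-like cells passed, lower in the upper part in 12 of 12 portions (median log2 ratio -0.40, exact permutation p = 0.000488, the smallest possible, adjusted 0.00977). Pgk1 was near the floor there, with a read in 41.7, 35.9 and 54.7% of uninjured, BDL and CCl4 FB-like wells of plates 1 to 5. The median was 0, 0 and 1 reads per well, and 68% of its 50-base stretches occur in other genes.

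HSC-like wells were on plate 6 only, which held uninjured mice. Its 154 wells labelled Uninjured 2 and 158 wells labelled Uninjured 3 had 1.5 and 1.57 RPM of Hk2, 79.7 and 86.3 of Hk1, 58.6 and 49.0 of Slc2a1, and 180 and 208 of Ldha. These Hk2 levels were below those of the FB-like portions, where the lowest was 6.55 RPM, and within the range of the VSMC-like portions, 0.440 to 16.1 RPM. With no injured HSC-like wells, the 10x difference of Hk2 has no plate-based counterpart. Its uninjured side has one, and the platforms differed there. Uninjured 10x HSC-like cells had 20.8 CPM of Hk2 beside 39.4 of Hk1, and uninjured 10x FB-like cells had 20.1 CPM of Hk2. Relative to Hk1 and to FB-like cells, Hk2 of uninjured HSC-like cells was thus lower on the plates than in 10x. The cause was not tested.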

How the data were processed

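Per the labels and the study's methods, the authors aligned the 10x reads to mm10 with Cell Ranger 2.1.0 and the Smart-seq2 reads with STAR, and deposited raw counts per gene for both (UMIs and reads). 10x cells with at least 300 genes and at most 30% mitochondrial UMIs and genes in at least 3 cells were kept. Wells within 3 median absolute deviations on quality measures were kept. Cells and wells were clustered separately (2000 variable genes, 10 components, Leiden resolution 0.8) and classes named from markers. Doublets were called in 4.36 to 5.84% of 10x cells and kept. 10x counts were summed per class and library, with 95% exact intervals that cover counting error only, a 20 CPM minimum and a 1.5-fold rule. Plate reads were summed per portion of at least 10 wells and tested with edgeR 4.0.16 (TMM, filterByExpr, quasi-likelihood test, plate as a term, Benjamini-Hochberg, threshold 0.05). DESeq2 1.42.0 was an alternative. Portions held 4680600 to 46957000 reads. Python 3.11.15, numpy 2.4.6, scipy 1.17.1, pandas 2.3.3, scikit-learn 1.9.0, leidenalg 0.10.2 and R 4.3.3 were used, and the steps were tested on simulated data.

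The members and lists were chosen with earlier results of these data known. All 10 members are named, and from other lists the members past 1.5-fold in 10x or an adjusted p of 0.05 on the plates (at most 6 per list), paralogs of members, and the 5 genes most like Hk2. Genes named as leaders of a cluster, and Fos and Junb, were chosen after their values were seen. Results for some genes are not reported here.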

Additional observations from a re-analysis of the deposited data

Results flagged for a closer look

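In 6 of 60 gene and group combinations of the plates, 1 portion stood apart from the rest of its group by a Dixon gap test at the 95% level, which chance alone meets in about 1 group in 20. In uninjured FB-like cells Pfkp had 187.9 RPM on plate 4 against 76.3 to 97.0 in the other portions, and in uninjured VSMC-like cells 306.7 RPM on plate 2 against 151.9 to 191.1. In CCl4 VSMC-like cells Pfkp had 334.3 RPM in the portion of CCl4 mouse label 1 on plate 3 against 133.3 to 147.4. Ldha had 488.7 RPM in the uninjured VSMC-like portion of plate 5 against 262.7 to 324.8. Pkm had 287.9 RPM in the BDL FB-like portion of mouse label 2 on plate 1, which held 12 wells, against 123.7 to 143.6. The lowest value was that of Pgk1 in CCl4 FB-like cells, 5.31 RPM for mouse label 1 on plate 5 against 7.46 to 7.78. The portions that stood apart lay on all 5 plates.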

How the results depend on the processing

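With a fold of 2 in place of 1.5, 1 of the 10 genes was higher in HSC-like cells at 72 h, 1 at 6 weeks over 72 h and 0 among VSMC-like cells, and with a lower fold (a ratio of 5 to 4) 3 were higher in FB-like and 4 in the VSMC-like class. The shares over all genes at these folds are not given, so nothing is read from these counts. On the plates DESeq2 called 2 genes in FB-like cells after BDL (Hk2, adjusted p = 0.0219, and Slc2a1, 0.00335), 2 after CCl4 (Slc2a1, 0.00528, and Ldha, 0.0143) and 1 in VSMC-like cells after BDL (Ldha, 0.0413), among 696, 468 and 430 genes, where edgeR called 8, 9 and 1 genes. Without the plate term edgeR called 1 gene, Slc2a1, in FB-like cells after BDL (of 51 genes) and 1, again Slc2a1, after CCl4 (of 93). With spike-in reads as library size it called 3 in VSMC-like cells after BDL (Aldoa, Pkm and Ldha, of 811). Without the filter on low counts it called 195, 155, 158 and 22 genes, none of them a member, and with robust empirical Bayes, added after seeing the data, 12 instead of 9 after CCl4 in FB-like cells. Leaving out each portion in turn left 0 to 0 of the 10 genes called in all 4 comparisons, and 0 to 18, 4 to 36, 0 to 23 and 0 to 0 of all genes. The cause of these differences was not tested. No direction of a called value reversed under the alternatives run. No paired analysis by mouse was possible because the groups compared share no replicate numbers in the labels. Injured and uninjured wells did share plates, and that comparison within plates is the plate term of the fit. The 10x libraries limit every HSC value to 1 library per condition, and Gapdh, Eno1 and Pgk1 had few reads on the plates.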
